A study of Mus musculus with 4 samples.

Results

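The Hox genes encode homeodomain transcription factors and sit in 4 clusters, HoxA on mouse chromosome 6, HoxB on 11, HoxC on 15 and HoxD on 2. Protein-coding members were taken by symbol from the mm10 gene annotation, giving 38 of the 21668 protein-coding genes of the autosomes and the X chromosome, with 10 in HoxA, 10 in HoxB, 9 in HoxC and 9 in HoxD. Genes of the same number in different clusters, such as Hoxa10, Hoxc10 and Hoxd10, are paralogues, copies that arose when the clusters were duplicated. Within a cluster the order of the genes mirrors the body axis: low numbers are expressed towards the head and high numbers towards the tail and the tip of the limb. Cells keep that position after birth, with Polycomb complexes holding the unused genes silent and Trithorax complexes and histone acetylation accompanying the used ones. The hindlimb forms at a caudal level of the axis, where genes of the middle and high numbers are in use.

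H3K27ac, the acetylation of lysine 27 of histone H3 found at active promoters and enhancers, was mapped by ChIP-seq in whole gastrocnemius, a calf muscle, of adult female B6CASTF1/J mice aged 2 months. These mice are first-generation hybrids of 2 inbred strains, and the deposited lists do not separate the alleles. The 4 libraries came from 2 biological replicates sequenced as 2 technical replicates apiece, and tissue from 2 samples had been pooled for each biological replicate. All libraries belonged to 1 group, so there was no comparison of conditions and no test was possible. Results are given as counts and lengths in the list that the authors made from both replicates, called the replicated list, with the lists of replicate 1 and replicate 2 beside it. The 3 lists held 84452, 70953 and 86937 regions and covered 4.48%, 3.23% and 4.47% of the genome. Replicate 1 had the shorter list, and acetylated lengths near Hox starts were larger in replicate 2 for 25 Hox genes, larger in replicate 1 for 3 and equal for 10. Depth could not be learned from the files. The labelled tissue was set beside marker genes. In the replicated list 61.2% of all coding genes had a region within 1 kb of a start. Among markers this held for 8 of 8 skeletal muscle fibre genes, 6 of 6 fibroblast genes and 6 of 6 endothelial genes. It held for 4 of 6 leukocyte genes, close to the share of all coding genes, and for 3 of 6 in replicate 2. Of neuron genes 1 of 6 (Stmn2) had such a region, and of hepatocyte genes 0 of 6. Genes of muscle fibres, fibroblasts and vessel cells were thus all acetylated, and which of these cell types carried the acetylation of a Hox gene cannot be told apart here, nor can fewer acetylated cells from less acetylation in each cell.

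A gene was called marked where a region lay within 1 kb of any of its protein-coding starts. By that rule 28 of the 38 Hox genes (73.7%) were marked in the replicated list, beside 61.2% of all coding genes. In replicate 1 the count was 25 of 38, beside 58.9% of all coding genes. In replicate 2 it was 27 of 38, beside 61.1%. Both replicates marked 25 of the 38, beside 58.6%. The share of Hox genes thus lay somewhat above the background in every list. Many Hox starts are rich in CpG dinucleotides, and among coding genes with a CpG-rich start 89.9% of 9529 were marked. Of the 22 Hox genes with such a start 16 were marked (72.7%), below that share. The 6 CpG-rich Hox genes without a region were Hoxb9, Hoxc12, Hoxc13, Hoxd1, Hoxd11 and Hoxd13.

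The acetylated length of a gene counted the bases inside regions from 5 kb before to 5 kb after its start, at most 10000 bp, with the start of largest value standing for a gene that had several. Its median over the 38 Hox genes was 3616 bp in the replicated list, against 1470 bp over all coding genes and 2512 bp over those with a CpG-rich start. The medians were 3216 bp for Hox genes and 1185 bp for all coding genes in replicate 1, and 3885 bp and 1467 bp in replicate 2. At least 5000 bp was covered at 14 Hox genes (36.8%), beside 12.6% of all coding genes. Among CpG-rich starts this held for 8 of 22 Hox genes, beside 19.5% of all such genes. The Hox set was split: 9 of the 38 had 0 bp of acetylation in the whole window in every list, while others were covered from end to end. The 2 replicates ordered the members alike, with a Spearman correlation of 0.987 between their lengths over the 38 genes. That value is a description only, because neighbouring members share regions. The medians and shares of Hox genes above have the same limit, as a single region can count for several members.

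**Figure D1:**
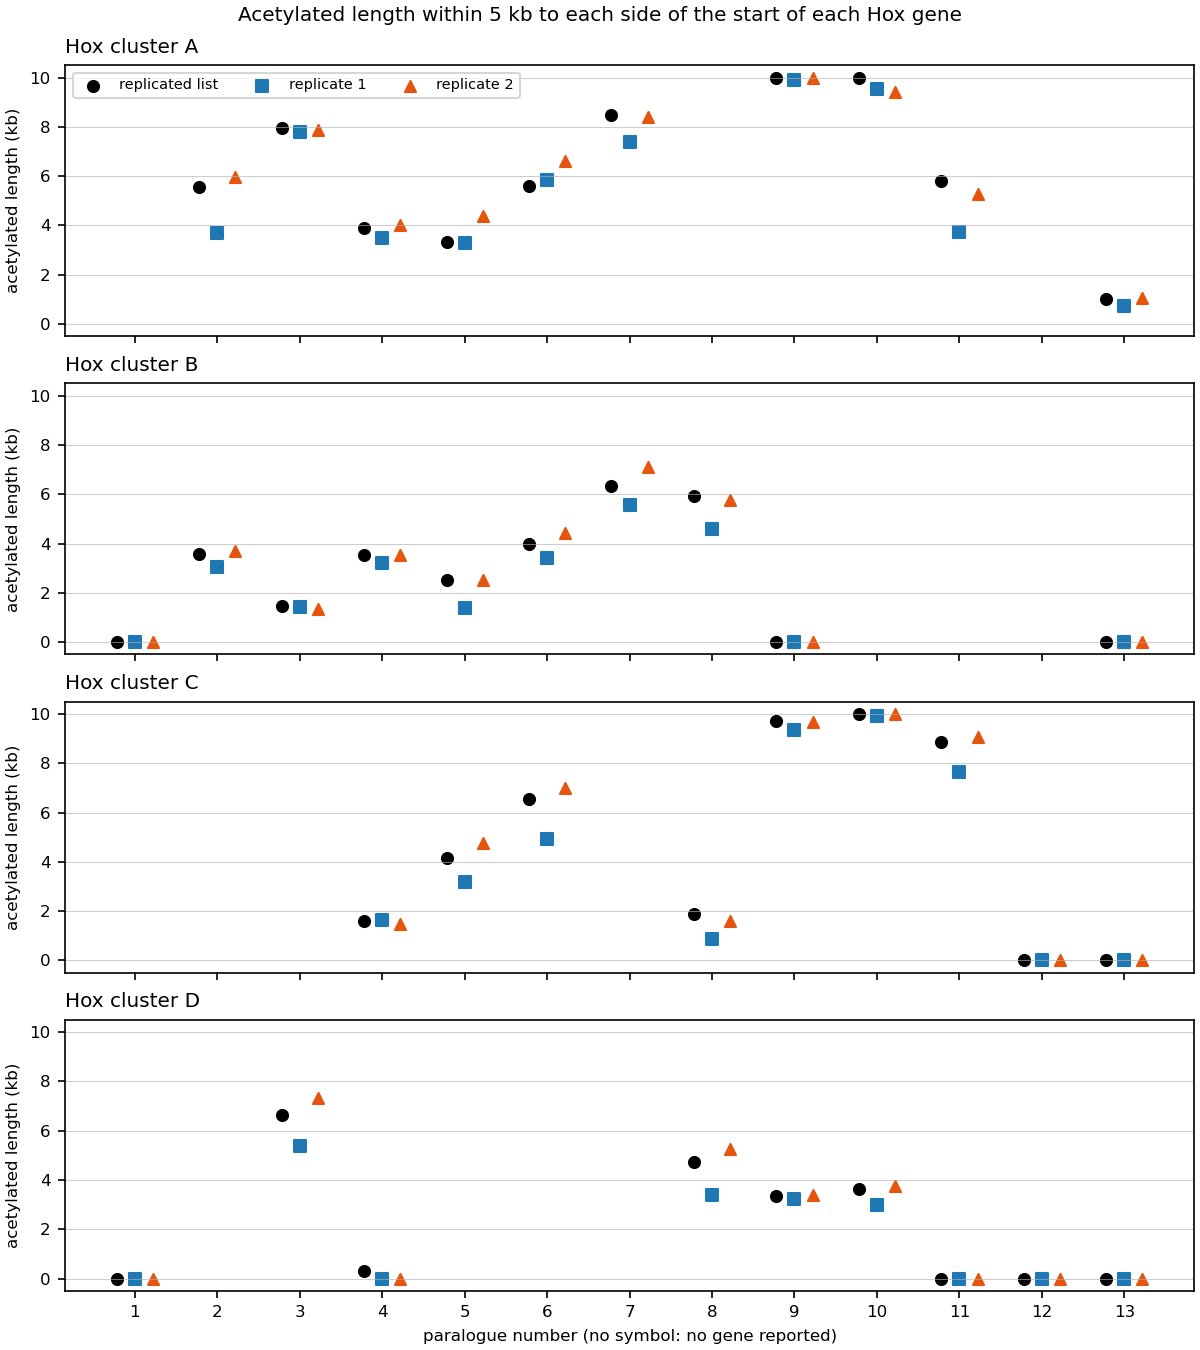
Acetylated length (kb, within 5 kb to each side of the start) of each Hox gene by paralogue number, 1 panel for each cluster, in the replicated list (circles), replicate 1 (squares) and replicate 2 (triangles). Hoxa9, Hoxa10 and Hoxc10 reach 10 kb in the replicated list, and 5 of the 6 genes of paralogues 12 and 13 lie at 0, the exception being Hoxa13.

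The signal value of a region is a number the authors deposited for each peak, and regions were ranked by it within a list. What it is relative to is not stated, so values of different lists may not share a scale. By that rank the strongest promoter region of 9 Hox genes (23.7%) was among the strongest 10% of all regions. Of all coding genes 35.1% had such a promoter region. The 9 were Hoxa3, Hoxa7, Hoxa9, Hoxa10, Hoxc10, Hoxc11, Hoxd3, Hoxd8 and Hoxd9. Over the 28 marked Hox genes the strongest promoter region ranged from a signal value of 2.73 at Hoxd4 to 49.3 at Hoxc10, with a median of 16.5.

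The clusters differed in how much of them was acetylated. HoxA, measured from the outer end of Hoxa13 to that of Hoxa2, was covered over 55.03% of its 98.464 kb in the replicated list, against 46.8% for replicate 1 and 56.2% for replicate 2. HoxC was covered over 49.0% of 115.75 kb, with 43.3% and 48.7% in the replicates. HoxD had 16.7% of 96.833 kb, with 14.1% and 18.7%. HoxB had 14.2% of 173.941 kb, with 11.2% and 14.2%. HoxA and HoxC thus stood apart from HoxB and HoxD by more than the replicates differed, while the ranges of the replicates overlapped within each pair. Each of the 4 clusters was covered more than the genome as a whole in all 3 lists.

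By the share of genes marked HoxA again came first in every list, but the other clusters did not keep the order of their covered shares. All 10 reported HoxA genes were marked in every list, with a median acetylated length of 5703.5 bp in the replicated list, 4782.5 bp in replicate 1 and 6286.5 bp in replicate 2. HoxC had 7 of 9 marked, but only 5 by replicate 1 and again 7 by replicate 2, with medians of 4138, 3170 and 4775 bp. HoxB had 6 of 10 in every list and medians of 3029, 2235.5 and 3019 bp. HoxD had 5 of 9, 4 and 4, with medians of 296, 0 and 0 bp. Over all coding genes the marked share was 61.2%, with 58.9% and 61.1% for the single replicates. Only HoxA was clearly above that share throughout. HoxC was above it except by replicate 1, HoxB lay close to it and HoxD was below it. The count for HoxD rested in part on how starts were chosen: with only the start nearest the coding sequence it was 3 in the replicated list, because Hoxd3 and Hoxd4 were marked there at upstream starts alone.

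**Figure D2:**
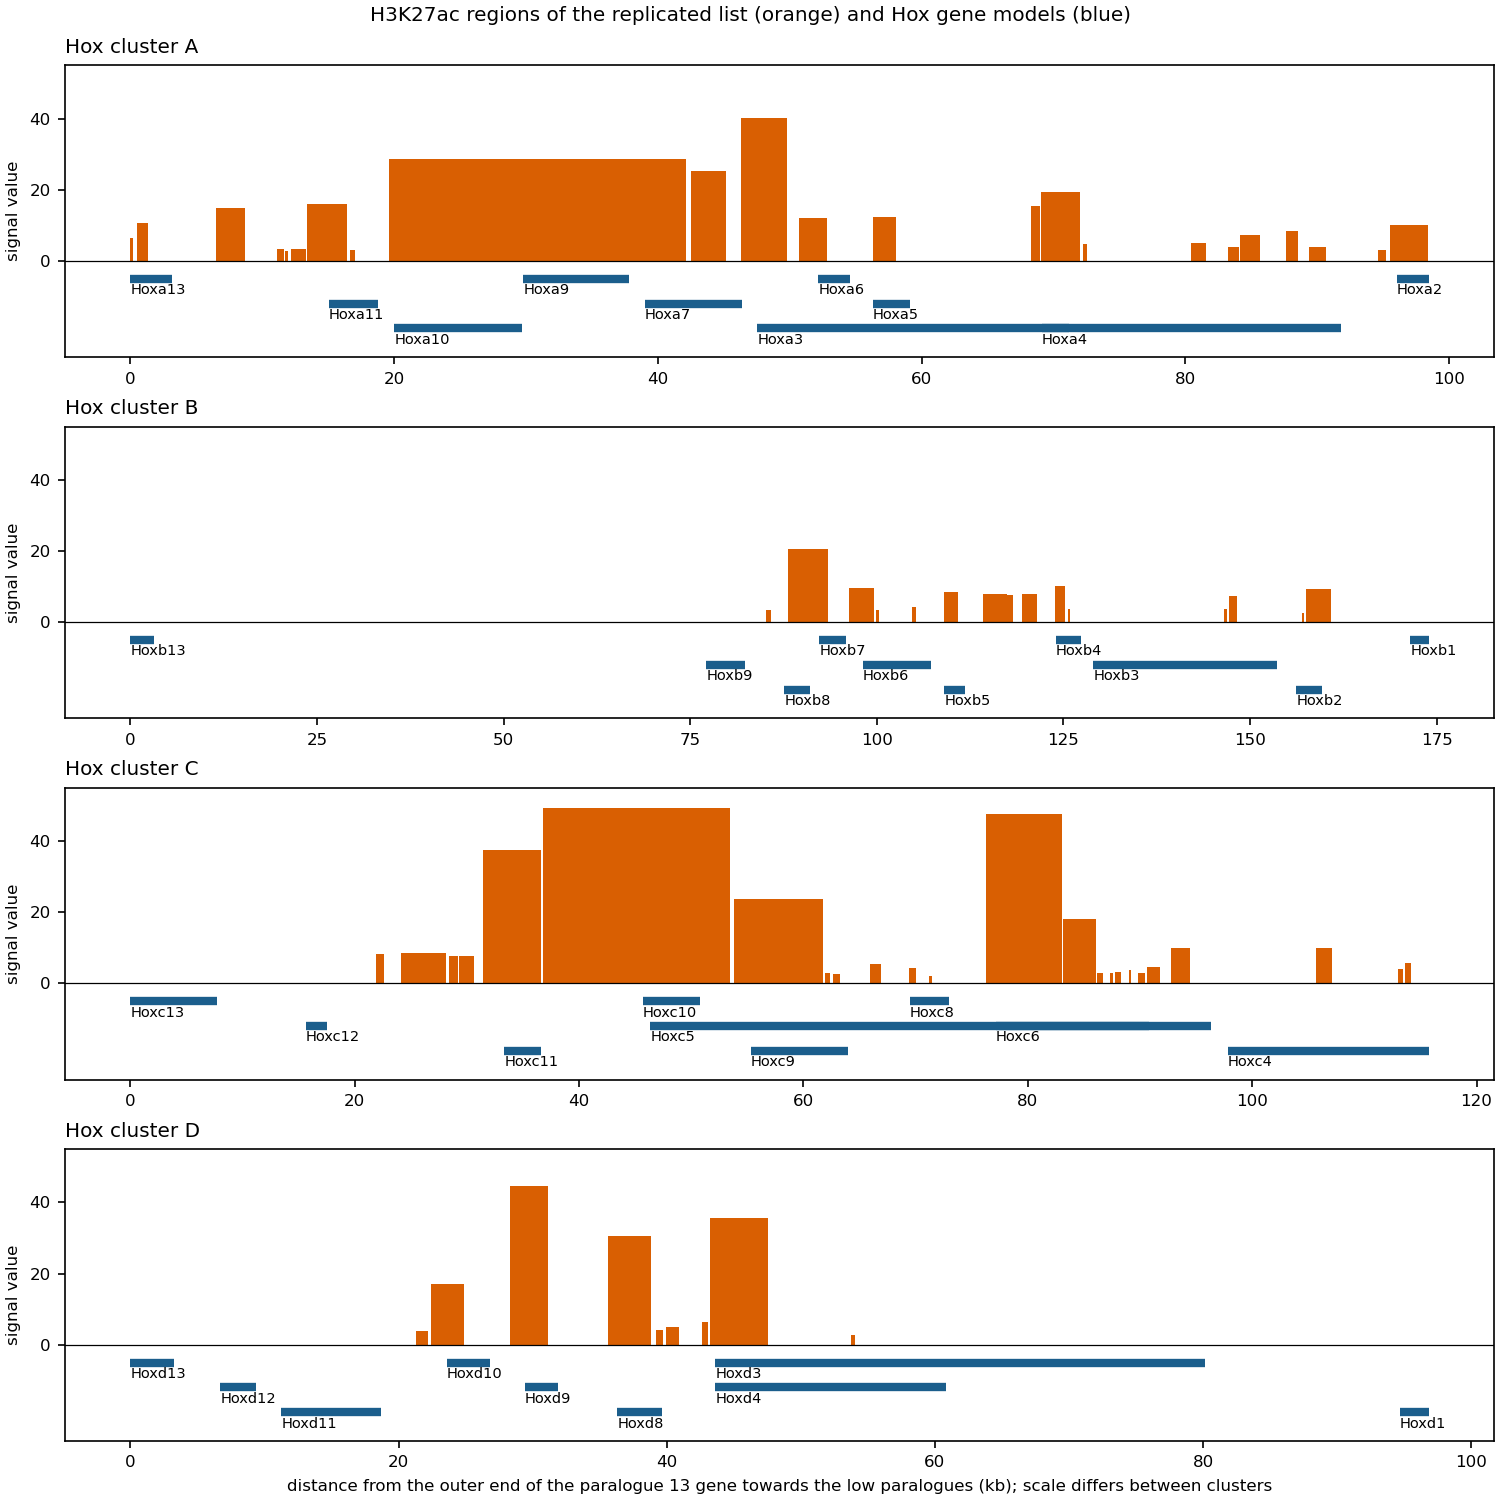
H3K27ac regions of the replicated list (orange, height is the authors' signal value) and the models of the reported Hox genes (blue) along each cluster, with distance in kb from the outer end of the paralogue 13 gene. Long stretches without regions lie at paralogues 12 and 13 of HoxC, 11 to 13 of HoxD and 9 and 13 of HoxB, while wide blocks lie at paralogues 9 and 10 of HoxA and 9 to 11 of HoxC.

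The widest acetylated stretch of the 4 clusters was in HoxA. A single region of 22528 bp, chr6:52218756-52241283, ran over the starts of Hoxa9 and Hoxa10 and to within 1 kb of a start of Hoxa7. By width it ranked 24 among the 84452 regions, though by signal value (28.5) it ranked only 6599. Hoxa9, a gene known from blood stem cells and leukaemia and from the patterning of limbs, had 10000 bp of acetylation in the replicated list, 9886 bp in replicate 1 and 10000 bp in replicate 2. Hoxa10, which helps to set the lumbar level of the skeleton and acts in the uterus, had 10000, 9537 and 9406 bp. Every list therefore covered more than 9 kb of the 10 kb around both. Hoxa7, a trunk gene, followed with 8484, 7389 and 8402 bp.

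HoxC held the strongest region. It spanned 16677 bp, chr15:102957898-102974574, and contained the start of Hoxc10, a gene of hindlimb and lumbar identity. Its signal value of 49.3 ranked 1177 and its width ranked 79 among all regions of the list, and the strongest overlapping regions of replicate 1 and replicate 2 had 38.4 and 50.6. Hoxc10 had 10000 bp acetylated in the replicated list, 9923 bp in replicate 1 and 10000 bp in replicate 2. On one side of it Hoxc9, which sets the thoracic identity of motor neurons, had 9702, 9332 and 9691 bp. On the other Hoxc11, a hindlimb gene of the caudal HoxC, had 8850, 7633 and 9081 bp. The block of paralogues 9 to 11 was thus nearly continuous in HoxC. The next region of HoxC by signal value, chr15:102997348-103004117 with 47.7 (36.9 in replicate 1 and 50.1 in replicate 2), lay inside the model of Hoxc5 and over the 5′ end of that of Hoxc6, and not within 1 kb of any coding Hox start. The strongest region within 1 kb of the coding start of Hoxc6 had a signal value of 3.76.

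In HoxD the marked genes formed an island in the middle. The region chr2:74696656-74699493 at the start of Hoxd9 had a signal value of 44.8, with 35.5 in replicate 1 and 45.0 in replicate 2, and ranked 1913. It was 2838 bp wide, and Hoxd9 had 3332 bp acetylated in the replicated list, 3236 bp in replicate 1 and 3373 bp in replicate 2. A region of 3186 bp with a signal value of 30.6 marked Hoxd8, which had 4731, 3388 and 5239 bp. A region of 2493 bp with 17.1 marked Hoxd10, a gene of lumbar motor neurons, which had 3647, 2979 and 3753 bp. The strongest region of HoxB, chr11:96282411-96287742, had a signal value of 20.5, ranked 10291 and contained the starts of Hoxb7 and Hoxb8. Hoxb7 had 6333 bp acetylated in the replicated list, 5579 bp in replicate 1 and 7123 bp in replicate 2, and Hoxb8, which acts in the nervous system and in blood progenitors, had 5923, 4597 and 5784 bp.

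The sequence under the summit of the strongest region is shown for HoxC and HoxD. These summits lay downstream of the coding starts of Hoxc10 and Hoxd9 and not before the transcript starts. Each is the plus strand of GRCm38, with matches to the searched motifs in capitals, and the HoxD stretch begins at the atg of Hoxd9 because untranslated bases were left out. The windows are chr15:102966925-102967124 and chr2:74698056-74698248.
Hoxc10 summit: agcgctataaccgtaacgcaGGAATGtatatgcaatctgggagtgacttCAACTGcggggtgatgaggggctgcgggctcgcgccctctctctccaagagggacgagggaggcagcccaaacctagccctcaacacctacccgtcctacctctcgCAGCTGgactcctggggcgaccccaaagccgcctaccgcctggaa
Hoxd9 summit: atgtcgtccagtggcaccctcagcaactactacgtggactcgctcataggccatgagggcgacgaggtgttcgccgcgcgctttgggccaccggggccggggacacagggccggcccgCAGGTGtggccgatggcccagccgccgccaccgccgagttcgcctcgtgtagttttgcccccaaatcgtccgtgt
The Hoxc10 window held CANCTG, the E-box bound by the MyoD family of muscle factors, at 2 places and GGAATG, bound by TEAD factors, at 1 place. The Hoxd9 window held 1 E-box. The Hoxc10 window had 13 CpG dinucleotides and the Hoxd9 window 22. The summit of the strongest HoxB region also lay downstream of a coding start, that of Hoxb7. Its window of 200 bases, not printed, held 0 matches to the searched motifs and 20 CpG dinucleotides. In HoxA the summit of the strongest region, chr6:52211094-52214609 with a signal value of 40.2, lay at the annotated start of Hoxa3 and its sequence is not printed.

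By paralogue number, acetylation was most extensive at the middle numbers and at 9 to 11. All 11 genes of paralogues 5 to 8 were marked in the replicated list, 9 of them by replicate 1 and all 11 by replicate 2. Of paralogues 9 to 11, 8 of 10 were marked in each list, and their median length was the largest, 7322 bp in the replicated list, 5688 bp in replicate 1 and 7175 bp in replicate 2. Paralogues 5 to 8 had medians of 4731, 3402 and 5239 bp. Of paralogues 1 to 4, 8 of 11 were marked in the main list and 7 in either replicate, with medians of 3534, 3038 and 3527 bp. Paralogues 12 and 13 had 1 of 6 marked in each list, with a median of 0 bp. The background share of marked coding genes was 61.2%, or 58.9% and 61.1% by the single replicates. Paralogues 5 to 8 and 9 to 11 lay above that background. Paralogues 1 to 4 were nearer to it, most of all by the single replicates, and 12 and 13 were far below it. Along HoxC acetylation ran through 9 to 11 and was absent at 12 and 13, while in HoxD it was absent from 11 on, in HoxB it was absent at 9 and 13, and in HoxA Hoxa13 was still marked.

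Paralogues 1 to 4 are the head-side genes, which pattern the hindbrain, neck and branchial arches. Hoxb1, needed in the hindbrain, and Hoxd1, known from pain-sensing neurons in mice, had 0 bp in every list. Their nearest regions were 10644 and 40631 bp away. Hoxa2, which gives the skeleton of the second branchial arch its identity, had 5552 bp in the replicated list, 3679 bp in replicate 1 and 5966 bp in replicate 2. Hoxb2 had 3585, 3038 and 3707 bp, the nearest region, with a signal value of 2.45, lying 60 bp from its start. Both copies of paralogue 2 were thus marked, while both reported copies of paralogue 1 had none.

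Paralogue 3 shows that a long acetylated stretch need not be near the coding part of a gene. Hoxa3, needed for the thymus and parathyroid, had 7952 bp in the replicated list, 7795 bp in replicate 1 and 7855 bp in replicate 2, but the annotated start of its coding transcript lies 40466 bp from its coding sequence, between Hoxa6 and Hoxa7. Hoxd3 had 6623, 5389 and 7341 bp at its most upstream start, position 74711927 of chromosome 2, next to Hoxd8. At its start nearest the coding sequence Hoxd3 had 0 bp in the replicated list, 0 bp in replicate 1 and 699 bp in replicate 2. Hoxb3 was not marked in any list and had 1469 bp in its window, the nearest region lying 1200 bp away. The calls of Hoxa3 and Hoxd3 thus rest on starts far upstream of the coding sequence, in the neighbourhood of other Hox genes.

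All 4 genes of paralogue 4 were marked in the replicated list, against 3 in either replicate alone. Hoxa4 had 3903 bp in the replicated list, 3494 bp in replicate 1 and 4017 bp in replicate 2. Hoxb4, known from blood stem cells, had 3534, 3196 and 3527 bp. Hoxc4 had 1597, 1621 and 1467 bp, among the few members with a longer value in replicate 1 than in replicate 2. Those lengths belong to a Hoxc4 start with no region within 1 kb in any list. The start at which Hoxc4 was marked had 1045, 1063 and 1053 bp. Hoxd4 was the weakest call of all 28. It had 296 bp in the replicated list and 0 bp in both replicates, from a region 76 bp from the start whose signal value of 2.73 ranked 78229 in the list. No single-replicate list had a region within 1 kb of a protein-coding Hoxd4 start. That call thus rests on the lists made from both replicates together, the replicated and the pooled list. The 5′ end of the Hoxd4 gene model, position 74711929, is not a protein-coding start and was not used. It lay inside chr2:74711514-74715898, the region at the upstream start of Hoxd3, which both replicates shared.

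Paralogues 5 to 8 act at the level of the neck, thorax and forelimb. Hoxa5, needed in the lung, had 3322 bp in the replicated list, 3277 bp in replicate 1 and 4394 bp in replicate 2. Hoxb5 had 2524, 1379 and 2511 bp, and Hoxc5 4138, 3170 and 4775 bp. Hoxa6 had 5613, 5822 and 6607 bp, and Hoxb6 3977, 3402 and 4414 bp. The members of this range were all marked, at lengths between 1871 bp (Hoxc8) and 8484 bp (Hoxa7).

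Of the members called in 1 replicate and not in the other there were 2, both in this range of HoxC. Hoxc6, a thoracic and forelimb gene, had 6537 bp in its window in the replicated list, 4942 bp in replicate 1 and 6994 bp in replicate 2. Its window was thus covered over a long stretch in both replicates, but within 1 kb of its start only replicate 2 had a region, and the nearest region of the replicated list lay 179 bp from the start. Hoxc8, needed for thoracic vertebrae and motor neurons, had 1871, 880 and 1588 bp, with a promoter region of signal value 4.25 in the replicated list, 4.03 in replicate 2 and none in replicate 1. No member was called in replicate 1 and not in replicate 2, the longer list.

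Paralogues 9 to 11, of the lumbar and sacral level and of the upper and middle limb segments, held the most acetylation in HoxA and HoxC. The same numbers differed between the clusters. For paralogue 9 the lengths were 10000 bp at Hoxa9, 9702 bp at Hoxc9, 3332 bp at Hoxd9 and 0 bp at Hoxb9. For paralogue 10 they were 10000 bp at Hoxa10, 10000 bp at Hoxc10 and 3647 bp at Hoxd10. For paralogue 11, whose genes together build the lower-leg and forearm bones and act in the muscle connective tissue there, they were 8850 bp at Hoxc11, 5794 bp at Hoxa11 and 0 bp at Hoxd11. Hoxa11 had 3743 bp in replicate 1 and 5269 bp in replicate 2. Hoxd11 had 0 bp in both, and its nearest region was 7268 bp away.

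The 200 bases before the transcript starts of Hoxa11 and Hoxd11 are shown because these starts descend from a common ancestral gene and differed in acetylation. All 200 bases were inside a region in every list for Hoxa11, and 0 bases in any list for Hoxd11. The pair was chosen after the values were seen. Each runs 5′ to 3′ on the strand of the gene in GRCm38, with CpG dinucleotides in capitals: minus strand chr6:52245811-52246010 and plus strand chr2:74682123-74682322.
Hoxa11 upstream: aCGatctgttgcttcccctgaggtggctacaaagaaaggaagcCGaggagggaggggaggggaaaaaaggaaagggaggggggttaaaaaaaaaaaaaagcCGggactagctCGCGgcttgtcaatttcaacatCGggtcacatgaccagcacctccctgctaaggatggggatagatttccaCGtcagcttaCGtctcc
Hoxd11 upstream: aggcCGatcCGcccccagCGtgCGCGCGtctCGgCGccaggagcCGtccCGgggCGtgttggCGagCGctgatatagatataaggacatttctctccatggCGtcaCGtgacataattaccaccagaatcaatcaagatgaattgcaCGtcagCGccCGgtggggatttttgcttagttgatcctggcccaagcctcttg
The stretches had 8 CpGs and 52.0% GC at Hoxa11, and 18 CpGs and 57.5% GC at Hoxd11. The sequence without acetylation was thus the richer in CpG.

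Paralogues 12 and 13 pattern the distal limb, the tail and the urogenital tract. Hoxc12, Hoxc13 (also a gene of hair and nails), Hoxd12, Hoxd13 (digits and genitalia) and Hoxb13 (tail and prostate) had 0 bp in every list. Hoxa13, needed in the foot and the urogenital tract, was the exception. It had 1017 bp in the replicated list, 727 bp in replicate 1 and 1064 bp in replicate 2, with a strongest region of 794 bp and a signal value of 10.7. This was the shortest value in HoxA, and the start bases of Hoxa13 were inside a region in replicate 2 and not in replicate 1.

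Stretches of several genes had no region at all. Lengths here stop at the cluster ends. The longest inside a cluster in the replicated list was at the outer end of HoxB, 85.18 kb from Hoxb13 to beyond Hoxb9, with 0 bp covered in either replicate. Hoxb9, a thoracic gene with a CpG-rich start, lay 7973 bp from the nearest region, at the edge of that stretch. In HoxD 21.281 kb with Hoxd11, Hoxd12 and Hoxd13 was empty, with 0 bp covered in replicate 1 and 87 bp in replicate 2. On the other side of HoxD 42.793 kb held the coding parts of Hoxd3 and Hoxd4 and all of Hoxd1, with 0 bp covered in replicate 1 and 1239 bp in replicate 2. In HoxC 21.866 kb with Hoxc12 and Hoxc13 was empty, with 0 and 11 bp in the replicates. The longest empty stretch of HoxA was 10.245 kb and contained no Hox coding start. The stretches at paralogue 13 of HoxB, HoxC and HoxD went on outside the clusters. In kb from the outer end of the paralogue 13 gene, that of HoxC ran from -170.265 to 21.866 in the replicated list. It was thus longer in full than that of HoxB, from -100.76 to 85.18. That of HoxD ran from -88.73 to 21.281.

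Together the 4 clusters held 71 regions, of which 36 lay within 1 kb of a coding Hox start and 35 further away. The nearer ones had a median width of 1845 bp and a median signal value of 10.1, against 802 bp and 4.64 for the rest. They covered 108682 bp, against 43028 bp. Any overlap with a 1 kb window put a region in the nearer set, so wide regions fell there more easily. The contrast in width and covered bases is thus partly built into the rule. In HoxC the order was turned, with a median signal value of 4.64 for the 11 regions near a start and 7.60 for the 13 others. The third region of HoxC by signal value was chr15:102952549-102957740 at Hoxc11 with 37.5, followed by chr15:102974873-102982829 at Hoxc9 with 23.8 and chr15:103004221-103007196 inside Hoxc5 and Hoxc6 with 18.3. In HoxA the regions after those at Hoxa3 and Hoxa9 were chr6:52215729-52218358 at Hoxa7 with 25.3, chr6:52188845-52191801 at Hoxa4 with 19.4 and chr6:52244451-52247506 at Hoxa11 with 16.0. In HoxD chr2:74711514-74715898 at the upstream start of Hoxd3 had 35.7, chr2:74703931-74707116 at Hoxd8 had 30.6, chr2:74690728-74693220 at Hoxd10 had 17.1 and chr2:74710920-74711422, also near that Hoxd3 start, had 6.44. In HoxB chr11:96318165-96319503 at Hoxb4 had 10.1, chr11:96290622-96293962 at Hoxb6 had 9.50, chr11:96351777-96355108 at Hoxb2 had 9.40 and chr11:96303311-96305224 at Hoxb5 had 8.37. The strongest region of HoxB was thus weaker than the third of every other cluster, and the 5 strongest of HoxB each lay at a Hox start.

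When regions at most 12.5 kb apart were joined into domains and ranked by the base pairs covered, HoxA and HoxC each lay in 1 long domain. The HoxA domain, which took in regions just outside the cluster, covered 58.037 kb and ranked 136 of 23088, and the HoxC domain covered 57.427 kb and ranked 139. The HoxD domain, chr2:74689591-74722349, covered 16.132 kb and ranked 1672. HoxB was split into chr11:96279496-96320148, with 19.627 kb and rank 1290, and chr11:96340791-96355108, with 5.054 kb and rank 5530. HoxA and HoxC thus fell among the longest acetylated domains of this muscle, and HoxB and HoxD further down.

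Regions of the clusters recurred between replicates slightly more often than regions at large. Of 65 cluster regions in replicate 1, 62 (95.4%) overlapped a region of replicate 2 by at least 50% of the shorter region, against 92.5% of all regions. In reverse 49 of 71 (69.0%) were shared, against 62.5%.

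The 200 kb on each side of a cluster were covered less than the cluster itself, on both sides of all 4. Beyond Hoxa13 1.81% was covered, with 0.713% in replicate 1 and 1.06% in replicate 2, and on the low-number side 7.68%, with 4.92% and 7.95%. For HoxB the shares were 3.87% beyond Hoxb13, with 3.20% and 3.85% in the replicates, and 0.724% on the low side, with 0.345% and 0.684%. For HoxC they were 1.91% and 16.2%, the only flank well above the 4.48% of the genome apart from the low side of HoxA. For HoxD, whose limb enhancers in the embryo lie in the gene-poor stretches on both sides, they were 3.27% and 2.87%. In replicate 1 and replicate 2 the low side of HoxC had 9.68% and 16.3%, and the sides of HoxD had 2.25% and 3.55% beyond Hoxd13 and 1.65% and 3.61% on the low side. Beyond the gene of number 13 the share was below that of the genome for every cluster in all 3 lists.

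**Figure D3:**
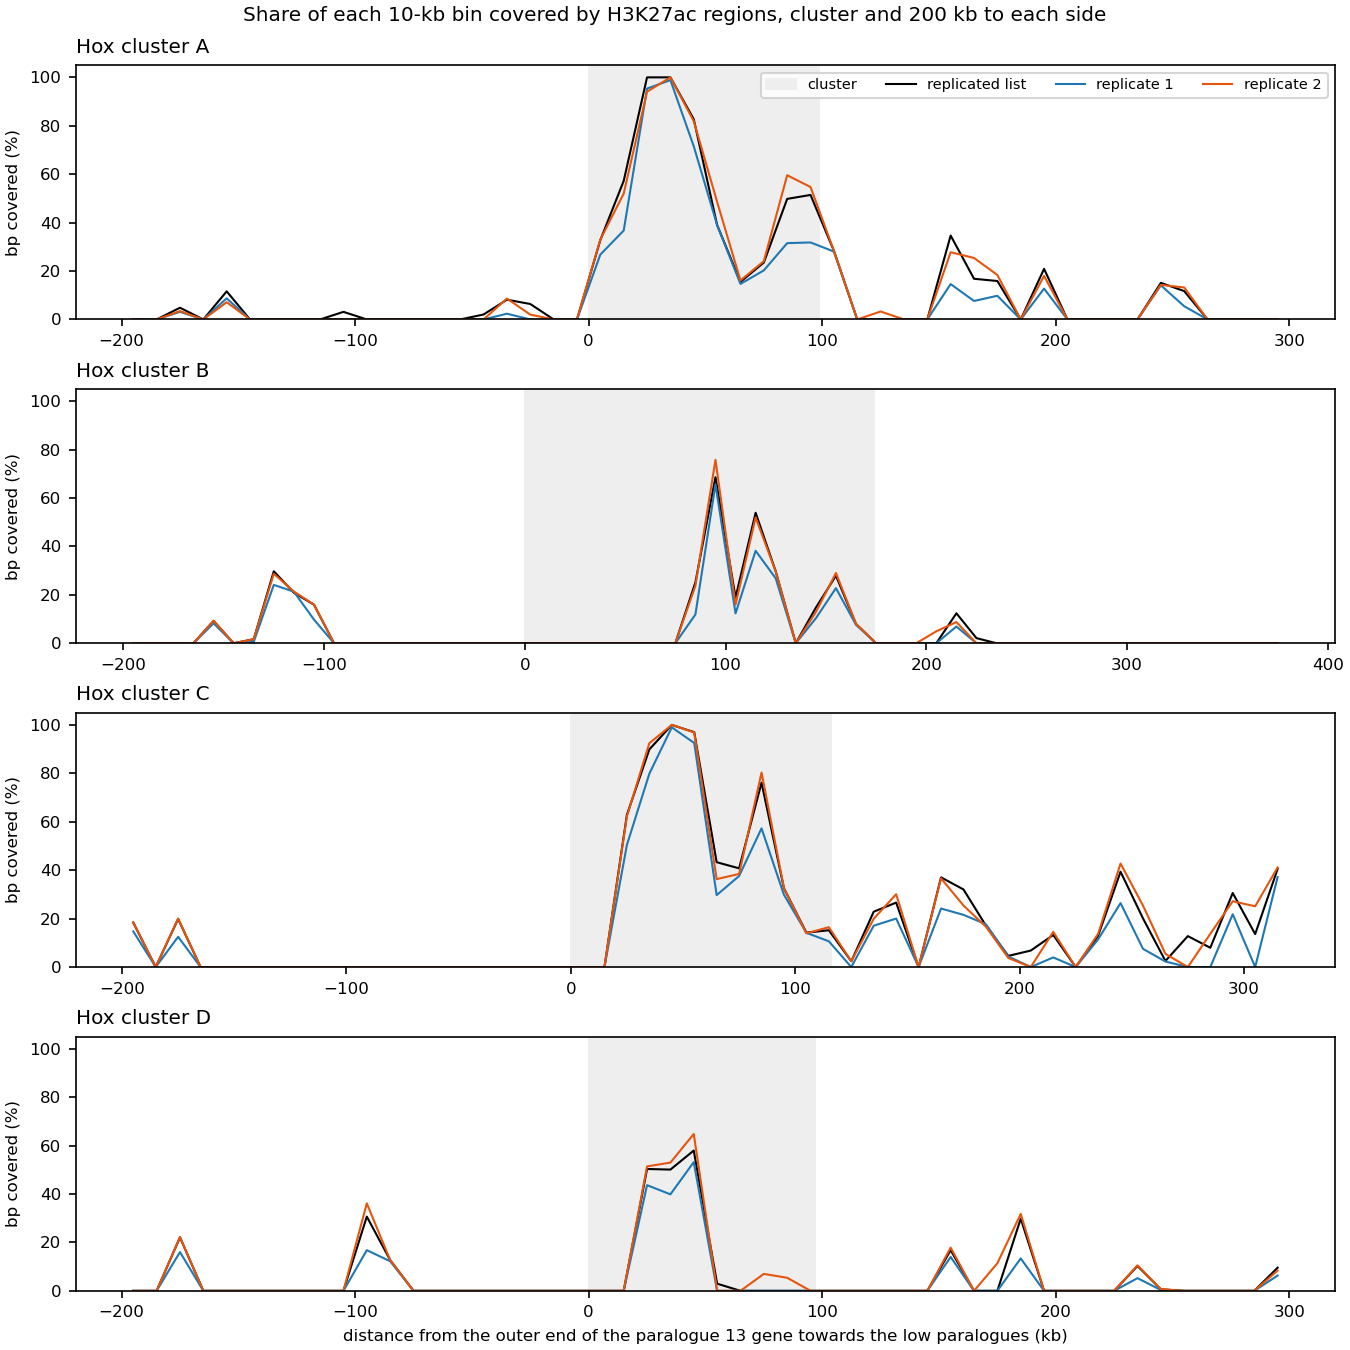
Share of each 10-kb bin covered by H3K27ac regions (percent) along each Hox cluster (grey) and 200 kb to each side, against distance in kb from the outer end of the paralogue 13 gene, in the replicated list, replicate 1 and replicate 2. In HoxA and HoxC the share reaches 100% inside the cluster, and the low-number side of HoxC has regions along most of its 200 kb, with 16.2% covered in all.

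Evx1 and Evx2, homeobox genes next to Hoxa13 and Hoxd13, had 0 bp in every list, so the empty stretch of HoxD went on past the cluster. Beyond Hoxd13 the strongest regions were chr2:74577737-74579580 with a signal value of 32.8 at Lnpk, a gene for a protein of the endoplasmic reticulum with 4337 bp acetylated, and chr2:74490315-74492524 with 17.9. On the low side chr2:74825283-74826964 with 32.0 lay at Mtx2, a mitochondrial import gene with 1682 bp. In the flanks of HoxB the strongest were chr11:96073697-96075748 with 47.2 and chr11:96076073-96076727 with 33.2 at Atp5g1, a subunit gene of the ATP synthase with 3069 bp, and chr11:96064149-96066307 with 25.9 at Ube2z, a gene of a ubiquitin-conjugating enzyme with 2159 bp. Skap1, on the other side of HoxB, had 0 bp. In those of HoxC they were chr15:102721195-102722167 with 30.8 at Calcoco1 (3054 bp), chr15:103092941-103095150 with 23.7 outside annotated genes, and chr15:103155414-103156702 with 18.7 in Smug1, a DNA repair gene with 4739 bp. Cbx5, which encodes a heterochromatin protein and lies beyond Smug1, had 3227 bp. In those of HoxA chr6:52011882-52013392 with 14.2 lay at Skap2, which had 1511 bp, and chr6:52063898-52065101 with 9.78 lay outside annotated genes. The strongest flanking regions of HoxB, HoxC and HoxD thus lay at non-Hox genes.

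The clusters also hold noncoding genes. Of 17 long noncoding genes with a start inside a cluster, 9 had a region within 1 kb of a start, beside 33.4% of the 9603 annotated long noncoding genes. These were 4 of 5 in HoxA, 2 of 4 in HoxB, 1 of 1 in HoxC and 2 of 7 in HoxD. Hotair, a long noncoding RNA from between Hoxc11 and Hoxc12, was among them in every list, at the edge of the empty stretch. Hoxa11os, Hoxaas2, Hoxaas3 and Hoxb3os had a region, and Hoxb5os and Haglr had none in the replicated list.

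The clusters hold 6 miRNA genes with a mature sequence in RefSeq, and 3 of them were inside regions. Those inside lay in HoxA and HoxC, and those outside in HoxB and HoxD. The count thus followed the covered shares of the clusters given above. No share over all miRNA genes of the genome was computed, so the count has no background. A further annotated miRNA gene, Gm44463 in HoxD, was outside regions. The sequences of 2 miRNA families are shown because their copies lie in different clusters, those of the miR-196 family with and without acetylation. They come from RefSeq on GRCm38.p6, with the seed, bases 2 to 8, in capitals.
mmu-miR-196a-5p: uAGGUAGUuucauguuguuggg
mmu-miR-196b-5p: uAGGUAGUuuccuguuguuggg
mmu-miR-10a-5p: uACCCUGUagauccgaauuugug
mmu-miR-10b-5p: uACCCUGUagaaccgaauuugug
The miR-196 family, with the seed AGGUAGU, is known to target Hoxb8. Its gene Mir196b lay between the starts of Hoxa9 and Hoxa10 inside the 22528 bp region, and Mir196a-2 lay inside the 16677 bp region of Hoxc10, though in replicate 1 its mature 5p bases fell outside a region. Mir196a-1, with the same mature miR-196a sequence, lay in the empty stretch of HoxB, 14309 bp from a region. The copies for the same mature miRNA were thus in acetylated and in bare chromatin. The miR-10 family, with the seed ACCCUGU, had neither gene inside a region: mature miR-10a lay 979 bp and miR-10b 3725 bp from the nearest. Mir615, in HoxC, lay inside the region at Hoxc5 with a signal value of 9.91.

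Fixed strings were searched on both strands within 150 bp of each summit. E-boxes (CANCTG) were in 35.2% of the 71 Hox cluster regions, against 57.3% of all 84450 regions, and the TEAD string GGAATG in 8.45% against 15.6%. The string TTTATGG, preferred by posterior HOX proteins, was in 8.45% against 3.34%, that is in 6 of 71. The homeodomain core TAATTA was in 5.63% against 5.22%, the MEF2 consensus in 4.23% against 4.60% and the CTCF core in 2.82% against 1.89%. The PBX-HOX string TGATTNAT was in 0 of 71, against 2.96%. The E-box share was thus below that of all regions, and the counts of the other strings, 0 to 6, were too small to rank them. A match is a run of letters and not a bound site.

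The genes that work with HOX proteins were nearly all marked in every list. All 9 HOX cofactors of the Pbx, Meis and Pknox families, which bind DNA beside HOX proteins, had a region within 1 kb in the replicated list, and 8 did in either replicate, beside the 61.2% of all coding genes. Their longest values were 7470 bp at Pbx2, 7105 bp at Meis1 and 5541 bp at Pknox2. Pbx4 had only 239 bp, and none in either replicate. All 19 Polycomb genes were marked in every list, with a median of 2432 bp and the largest values at Ezh1 (6975 bp), a catalytic subunit found in non-dividing cells, Jarid2 (6906 bp) and Pcgf2 (6556 bp). All 11 Trithorax and histone demethylase or methyltransferase genes were marked as well, led by Kdm6b, a demethylase of H3K27, with 10000 bp, Dot1l with 9777 bp and Kmt2d with 6239 bp. Of these 3 lists 30 of the 39 genes had a CpG-rich start, the kind of start at which 89.9% of coding genes were marked.

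Other homeobox genes were also split into marked and unmarked genes, but at lower shares than the Hox genes. The ParaHox genes and Evx1 and Evx2, the closest relatives of the Hox clusters, were marked in 0 of 7, although 5 had CpG-rich starts. Cdx1 had 289 bp in its window and the other 6 had 0 bp. Of the limb position genes 3 of 6 were marked: En1 (6227 bp), Pitx1 (2860 bp) and Tbx4 (559 bp), of which Pitx1 and Tbx4 are hindlimb genes. The length at Tbx4 was short in the replicates too, 289 bp in replicate 1 and 922 bp in replicate 2. Tbx5, the forelimb counterpart of Tbx4, Shh and Lmx1b were not marked, though Tbx5 had 355 bp in its window in replicate 2. Of 32 further homeobox genes 16 were marked, or 15 by replicate 1 and 16 by replicate 2, although 24 had CpG-rich starts. Among the marked were Meox2 (9758 bp) and Meox1 (6688 bp), both of the somites that give rise to muscle. The shares of these homeobox and limb position lists all lay below the 61.2% of all coding genes in the replicated list. In share the Hox genes lay above that background, between these lists and the cofactors. Among CpG-rich starts they lay below the background, at 72.7% against 89.9%.

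**Figure D4:**
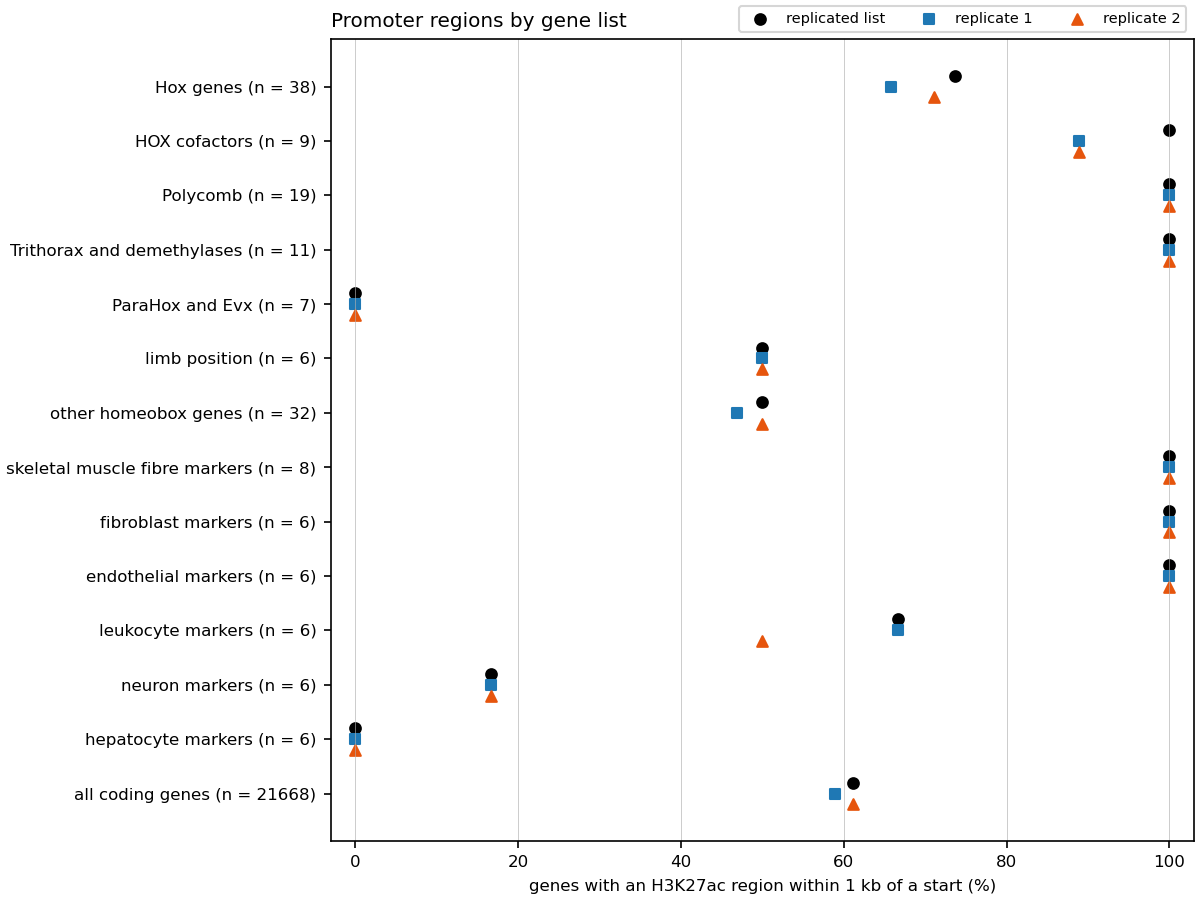
Percent of genes with an H3K27ac region within 1 kb of a start for the 38 Hox genes, the context lists, the cell type markers and all 21668 coding genes, in the replicated list (circles), replicate 1 (squares) and replicate 2 (triangles). Cofactors and chromatin regulators lie at 100% in the replicated list, Hox genes at 73.7% and all coding genes at 61.2%, with ParaHox and Evx genes at 0.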

How the data were processed

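H3K27ac ChIP-seq was analysed in 1 group of 4 libraries, 2 technical replicates of each of 2 biological replicates. Per the deposited descriptions, technical replicates shared 1 alignment, so they do not count separately. The authors deposited 4 peak lists on mm10: a replicated list made from both replicates, which was the main list here, 1 list for each replicate, and 1 pooled list. Each peak in the deposited lists has a signal value, a display score, p- and q-values as −log10 (only q was used) and a summit. What the signal is relative to is not stated, and aligner, peak caller and thresholds were not given in the sources used. The score was not used. The control library was not analysed here. No read counts were available, so depth is unknown, and pools of tissue samples limit what the 2 replicates say of the spread between mice.

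Genes came from GENCODE M21 (basic set) on the 19 autosomes and X, and sequence from GRCm38, the assembly the files call mm10. No peak ran past a chromosome end. A start was CpG-rich where the 500 bp to each side had a CpG observed to expected ratio of at least 0.6 and at least 55% GC. For each Hox gene with several coding starts, any start within 1000 bp of a region marked it. Python 3.11.15, numpy 2.4.6, scipy 1.17.1 and pysam 0.24.0 were used, and the counting code was tested on simulated data. The members and gene lists were chosen with earlier results of these data known, and no test was run. All members are accounted for. Fuller values are given for those called in 1 replicate, for the 12 longest and for those at 0 bp, as are the 5 strongest regions of each cluster, the 3 strongest of its flanks, and in context lists the exceptions or the 3 longest genes. 1 further gene of the clusters with the region at its start, 1 context gene and some sequences are not reported here. Alternatives were the other lists, peaks with −log10 q of at least 5, other windows, flanks and starts, and other overlap rules.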

Additional observations from a re-analysis of the deposited data

How the results depend on the processing

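Of 113 alternative values for 22 results, 101 stayed within the limits set for a like value and 12 moved. The limits were not the same for every result. Without replicate 2 the flanks of HoxB went from 2.30% to 1.77% and counted as moved. Those of HoxD went from 3.07% to 1.95% and counted as alike. These counts are thus no uniform measure of stability. With only the start nearest the coding sequence, 3 HoxD genes were marked. The median acetylated length of Hox genes was 2566 bp within 2.5 kb and 1154 bp within 1 kb of a start, windows that can hold less by construction. Leaving out a replicate gave covered shares of 46.8% to 56.2% for HoxA, 11.2% to 14.2% for HoxB and 43.3% to 48.7% for HoxC. For both 200 kb flanks together it gave 2.82% to 4.51% for HoxA, 1.77% to 2.27% for HoxB, 5.52% to 9.09% for HoxC and 1.95% to 3.58% for HoxD. With flanks of 100 kb the shares were 7.17% for HoxA, 0.724% for HoxB and 4.50% for HoxD. The counts of marked genes in the whole set and the context lists kept within 1.5 times under the alternatives run. No paired analysis was possible because there was 1 group. With 2 replicates, list lengths that differ and unknown depth, a missing region says only that none was listed.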
